A study of Homo sapiens with 9 samples.

Results

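Sarcoma diagnostic markers, 10 genes whose RNA or protein is used in pathology to tell round cell and spindle cell sarcomas apart, were followed in 293T cells made to express a CIC fusion. The rule that lists them goes by name and that use, and it sets no threshold on a measured value: FLI1, ERG, CD99, NKX2-2, WT1, MUC4, BCOR, KIT, DES and MYOD1. All 10 were found among the 62700 genes of the count table, and 7 of the 10 had enough reads for the count model, which tested 17576 genes. The question was which of these markers a CIC fusion by itself brings on or raises in a cell that is not a sarcoma cell.

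PolyA-selected RNA was sequenced from 9 libraries of 293T, an established line derived from human embryonic kidney. The cells carried an empty vector, a plasmid for HA-tagged CIC::DUX4, or a plasmid for HA-CIC(ex20)::NUTM1(ex6), with 3 libraries in each group. In all groups 300000 cells were reverse transfected with Fugene 6, and RNA was taken about 48 hours later, with replicates done on different days per the labels. Library totals ran from 16970771 to 33655445 counts. The fusions were expressed from plasmids for a short time in 1 kidney line, so the groups model an acute response and not a tumour. Transcripts of CIC, DUX4 and NUTM1 themselves were not analysed here, and expression of the plasmids was therefore not checked. RNA came from whole cultures, in which fewer cells carrying a transcript and less transcript per cell cannot be told apart. Of 12 genes listed for the kidney and 293 background, 11 had at least 10 counts in every library, and PAX8 was the exception, with 0 counts in each empty vector library. Their summed level was 1666 to 1847 CPM (library-size scaled counts, with TMM factors) with empty vector, 1608 to 1623 with CIC::DUX4 and 1753 to 1840 with CIC::NUTM1. The sum hides changes of single genes. By edgeR adjusted p under 0.05, 3 of the 12 rose and 2 fell with CIC::DUX4, and 6 rose and 2 fell with CIC::NUTM1. Over all tested genes these shares were 6.96% and 1.27%, and 11.5% and 3.83%. With CIC::NUTM1, VIM went from 573 to 710 CPM and NEFM from 567 to 347. The NEFM call with CIC::NUTM1 was lost without CIC::NUTM1 replicate 1 (edgeR adjusted p = 0.0542). With CIC::DUX4 the NEFM call was lost in 3 of 6 fits that each left out 1 library (adjusted p 0.0526 to 0.0590). It was also lost with the replicate number as a block (adjusted p = 0.0537). A list of 10 blood, endothelial, liver, muscle and fibroblast genes summed to between 34.6 and 40.7 CPM over all libraries, and only COL1A1 and COL3A1 among them had at least 10 counts in every library.

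Capicua (CIC) is an HMG-box repressor that sits at the promoters of ETS genes such as ETV1, ETV4 and ETV5, and joining it to DUX4 or NUTM1 is known to turn it into an activator of those genes. CIC-rearranged sarcomas are told from Ewing sarcoma with a panel of stains. WT1 and ETV4 are commonly positive in CIC sarcoma, whereas NKX2-2 and strong, diffuse CD99 point to Ewing sarcoma, which is driven by fusions of EWSR1 to FLI1 or, less often, ERG. BCOR marks BCOR-rearranged sarcoma, MUC4 marks low-grade fibromyxoid sarcoma and its relatives, desmin and MYOD1 mark rhabdomyosarcoma, and KIT marks gastrointestinal stromal tumour.

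With CIC::DUX4, FLI1 rose and BCOR fell against empty vector, and no other of the 7 tested markers passed the test. With CIC::NUTM1, FLI1 and CD99 rose and BCOR and KIT fell. In 6 fits that each left out 1 library, the KIT call was lost in all 6 and the BCOR call in 3. Those of FLI1 and CD99 were lost in none. WT1 and NKX2-2 did not pass the test with either fusion, and MUC4, DES and MYOD1 stayed at traces of RNA in every library. ERG was seen in a few reads, more of them with CIC::NUTM1. The counts of called markers are read against all tested genes. The edgeR test with Benjamini-Hochberg adjustment over all of these called, at a threshold of 0.05, 6.96% upward and 1.27% downward with CIC::DUX4, and 11.5% upward and 3.83% downward with CIC::NUTM1. Between the fusions, CD99 was higher and FLI1 lower with CIC::NUTM1, where 4.97% of tested genes were higher and 1.64% lower. The median log2 fold change of the 7 tested markers was 0.02 for CIC::DUX4 and -0.09 for CIC::NUTM1, beside medians of -0.001 and -0.0009 over all tested genes. The 2 comparisons with empty vector use the same 3 control libraries, so their values are set side by side and not counted as independent.

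**Figure D1:**
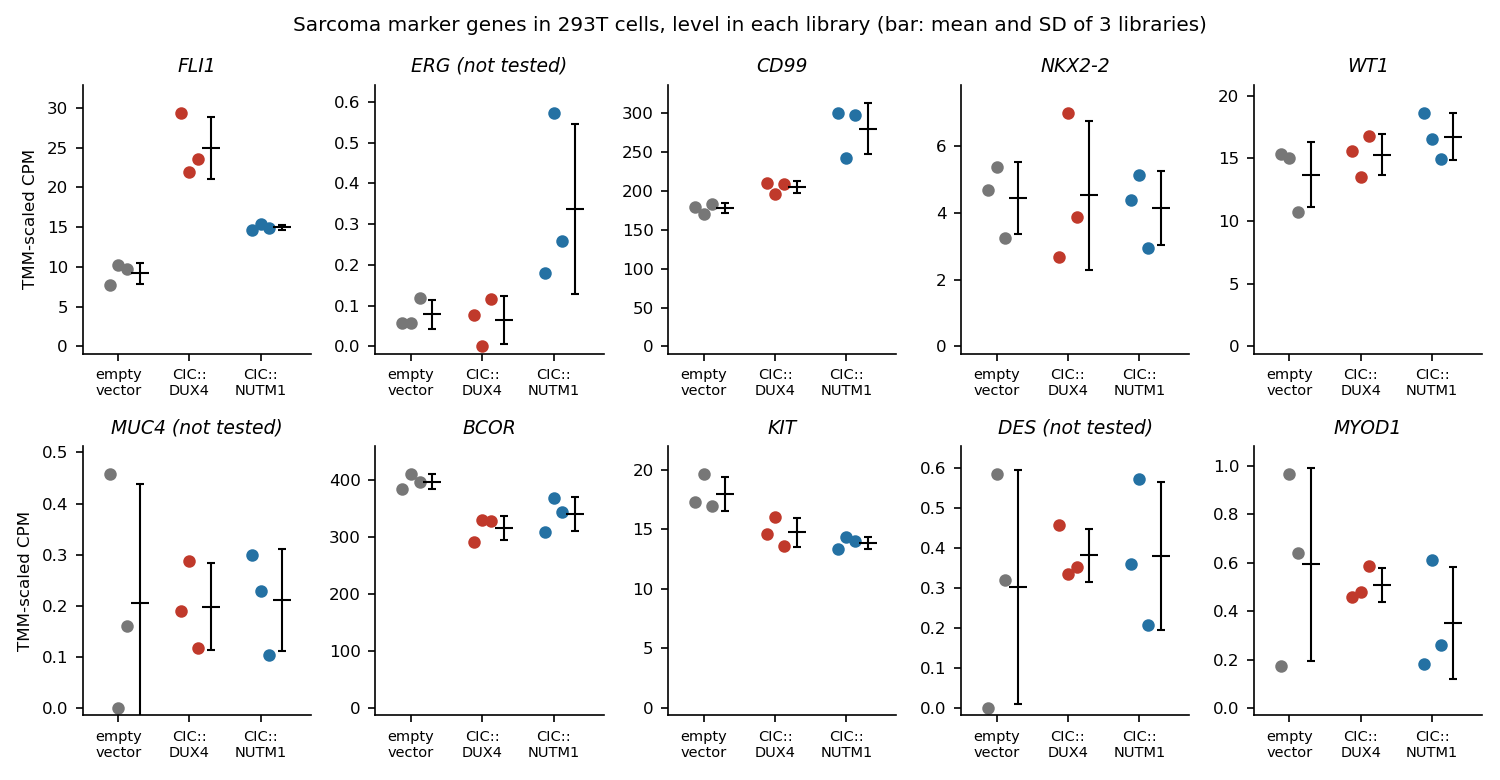
TMM-scaled CPM of the 10 markers (vertical axes, starting at 0 and scaled by gene) in each library of empty vector, CIC::DUX4 and CIC::NUTM1; points are libraries and the bar to the right of each group is its mean and SD (n = 3), drawn only down to 0. The 3 FLI1 points with CIC::DUX4 lie between 21.9 and 29.4 CPM, above all empty vector points, and the 3 CD99 points with CIC::NUTM1 lie between 242 and 301 CPM, above all others.

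The markers stood at very different levels without a fusion. Divided by the length of their exons, the empty vector levels were 46.4 ± 1.48 CPM per kb for BCOR and 36.2 ± 1.33 for CD99 (SD, n = 3), above 94.4% and 92.2% of tested genes. WT1 (3.33 ± 0.63) and KIT (3.23 ± 0.26) came next on the same CPM per kb scale, and their libraries overlapped. NKX2-2 followed at 2.12 ± 0.52 CPM per kb and FLI1 at 1.13 ± 0.16, with no overlap between those neighbours or between NKX2-2 and KIT. MYOD1 (0.329 CPM per kb), DES (0.123), ERG (0.0104) and MUC4 (0.00966) made up the low end, and each of these overlapped the next in its libraries. NKX2-2 also lay below WT1, by a small margin (highest library 2.56 against lowest 2.60 CPM per kb). The order without overlap is therefore BCOR, CD99, WT1 with KIT, NKX2-2, FLI1, and 4 genes near the limit of detection. With CIC::DUX4 the FLI1 level was 3.06 ± 0.48 CPM per kb, among those of WT1, KIT and NKX2-2 and no longer below them.

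**Figure D2:**
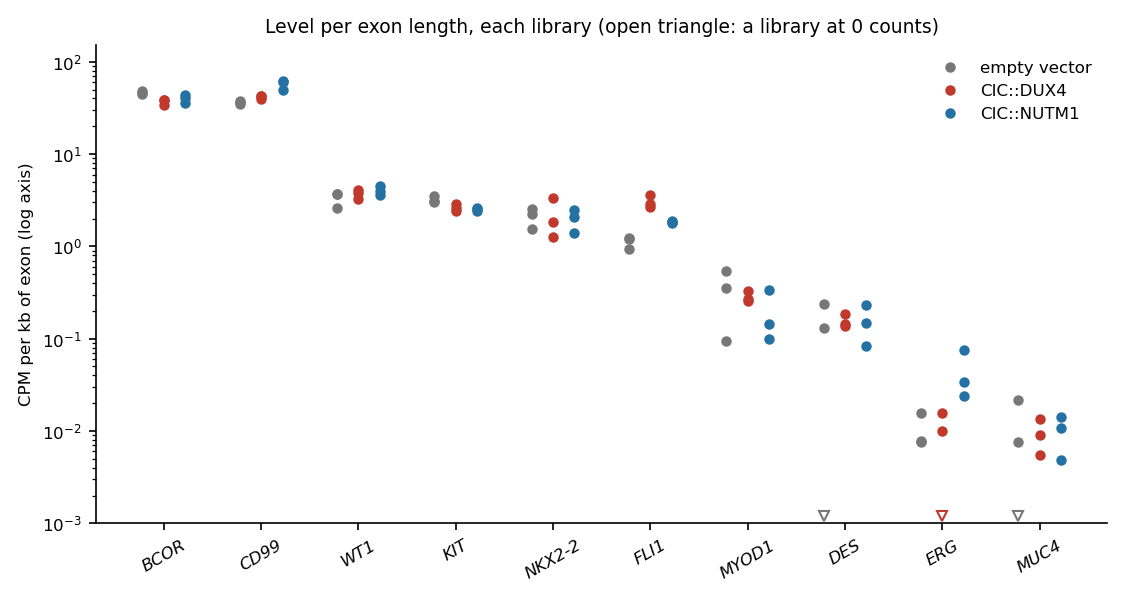
CPM per kb of exon (log axis) for the 10 markers, ordered by their empty vector level, with 1 point per library and colours for the 3 groups; open triangles at the bottom mark libraries with 0 counts. BCOR and CD99 lie at 34.1 CPM per kb or more in every library and the other markers at 4.54 or less, and FLI1 with CIC::DUX4 lies among WT1, KIT and NKX2-2.

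FLI1 is an ETS transcription factor of blood and endothelial cells and the usual partner of EWSR1 in Ewing sarcoma (ENSG00000151702, chr11:128686535-128813267, plus strand, GRCh38). Its reads numbered 135, 348 and 244 with empty vector, 771, 458 and 401 with CIC::DUX4, and 244, 401 and 288 with CIC::NUTM1. On the CPM scale these were 7.72, 10.2 and 9.78, then 29.4, 21.9 and 23.6, then 14.6, 15.3 and 14.9. Each fusion library exceeded every control library, and every CIC::DUX4 library exceeded every CIC::NUTM1 library. With CIC::DUX4 the mean rose from 9.23 ± 1.32 to 25.0 ± 3.92 CPM (SD, n = 3), which is 2.71-fold, or 1.43 ± 0.14 on the log2 scale (SE, edgeR adjusted p = 5.45e-08). With CIC::NUTM1 it rose to 14.97 ± 0.354 CPM, which is 1.62-fold, or 0.69 ± 0.14 on the log2 scale (edgeR adjusted p = 0.00105). The direct comparison put FLI1 1.67-fold higher with CIC::DUX4 (log2 -0.74 ± 0.14 for CIC::NUTM1 against CIC::DUX4, edgeR adjusted p = 0.000786). No single library decided any of these 3 calls. Of the markers that passed the test, FLI1 had the largest estimate in each comparison with empty vector, and with CIC::NUTM1 that estimate lay close to the one of CD99.

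FLI1 shares exon sequence with the antisense RNA gene SENCR on the other strand (ENSG00000254703), 162 bases of it, and was also the marker with the most changed overlapping gene. SENCR, a long noncoding RNA described in endothelial and smooth muscle cells, was singled out after its values were seen. It had 8, 1 and 0 reads with empty vector, 276, 157 and 108 with CIC::DUX4, and 67, 28 and 29 with CIC::NUTM1. No library of a fusion overlapped the control. Its log2 fold change was 6.00 ± 0.80 with CIC::DUX4 (edgeR adjusted p = 0.000669) and 4.06 ± 0.88 with CIC::NUTM1 (edgeR adjusted p = 0.00987), and the latter call was lost without empty vector replicate 2 (adjusted p = 0.0527). Between the fusions the difference was -1.94 ± 0.56 for CIC::NUTM1 against CIC::DUX4 and did not pass (edgeR adjusted p = 0.0730). The libraries were made with a strand-marking kit, but whether counting used strand is not given in the sources used here, so reads in the shared bases cannot be assigned to 1 gene. The mean of FLI1 rose by 15.7 CPM with CIC::DUX4 and by 5.74 with CIC::NUTM1, and SENCR was counted at 8.13 ± 2.15 and 2.20 ± 1.59 CPM; the part of shared reads in the FLI1 change was not tested.

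**Figure D3:**
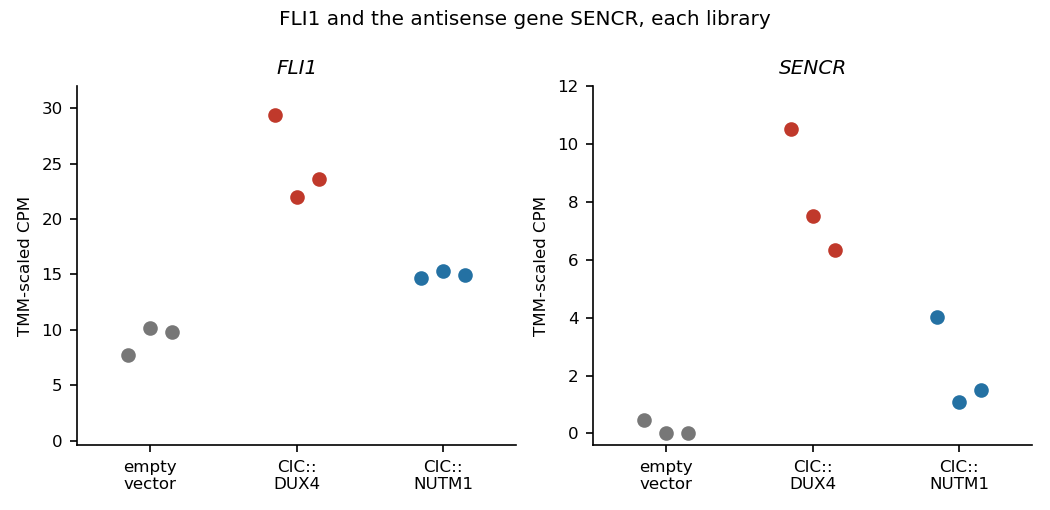
TMM-scaled CPM of FLI1 (left) and of the antisense gene SENCR (right) in each of the 3 libraries of empty vector, CIC::DUX4 and CIC::NUTM1 (horizontal axis). Both genes are lowest with empty vector and highest with CIC::DUX4, where SENCR reaches 6.35 to 10.5 CPM.

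ERG, the ETS factor closest to FLI1 and a stain for endothelial cells, was close to absent (ENSG00000157554, chr21:38380027-38661780, minus strand). It had 1, 2 and 3 reads with empty vector, 2, 0 and 2 with CIC::DUX4, and 3, 15 and 5 with CIC::NUTM1, too few for the count model. In CPM, the 3 CIC::NUTM1 libraries (0.180, 0.574 and 0.259) lay above all libraries of empty vector (0.0787 ± 0.0360, SD, n = 3) and of CIC::DUX4 (0.0646 ± 0.0597), each with an exact permutation p of 0.1, two-sided, the smallest that 3 against 3 can give. Among genes too low for the model, 5.79% lay above empty vector in this way and 3.26% above CIC::DUX4. Pooled and scaled by library size, ERG reads with CIC::NUTM1 were 4.73 times those of empty vector (23 against 6 reads, 95% exact interval 1.87 to 14.2, counting error only). Replicate 2 held most of these reads, and without it the ratio was 2.84, with an interval of 0.864 to 9.93. The fit without a filter gave ERG a log2 fold change of 2.02 with CIC::NUTM1 (edgeR adjusted p = 0.437), so a change of ERG was not detectable by that test.

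The rest of the ETS family is given for context, 25 genes of which 18 were tested. Of these, 6 rose with CIC::DUX4 and 5 with CIC::NUTM1, beside 6.96% and 11.5% of all tested genes, and none fell. ETV1, ETV4, ETV5, ETS1 and SPI1 rose with each fusion, and ETV6 with CIC::DUX4. The median log2 fold change of the 18 was 0.09 for CIC::DUX4 and 0.14 for CIC::NUTM1. ETV4, the ETS gene used beside WT1 as a CIC sarcoma stain, rose from 0.510 ± 0.101 to 193 ± 35.0 CPM with CIC::DUX4 and 207 ± 49.5 with CIC::NUTM1, log2 fold changes of 8.52 and 8.62. SPI1, the myeloid factor PU.1, rose from 0.145 ± 0.126 to 5.11 ± 1.27 and 3.44 ± 2.09 CPM (log2 5.11 ± 0.59 and 4.51 ± 0.60, edgeR adjusted p = 9.15e-06 and 2.85e-05). FLI1 lay far below these 2 genes in fold change. ETS1 had a log2 fold change of 0.53 for CIC::DUX4, below that of FLI1 (1.43). With CIC::NUTM1 the ETS1 value was 1.73, above that of FLI1 (0.69). For FLI1 and ETS1 the order of the fusions was opposite: ETS1 under CIC::NUTM1 exceeded its level under CIC::DUX4 (log2 1.21 ± 0.12, edgeR adjusted p = 1.41e-07).

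**Figure D4:**
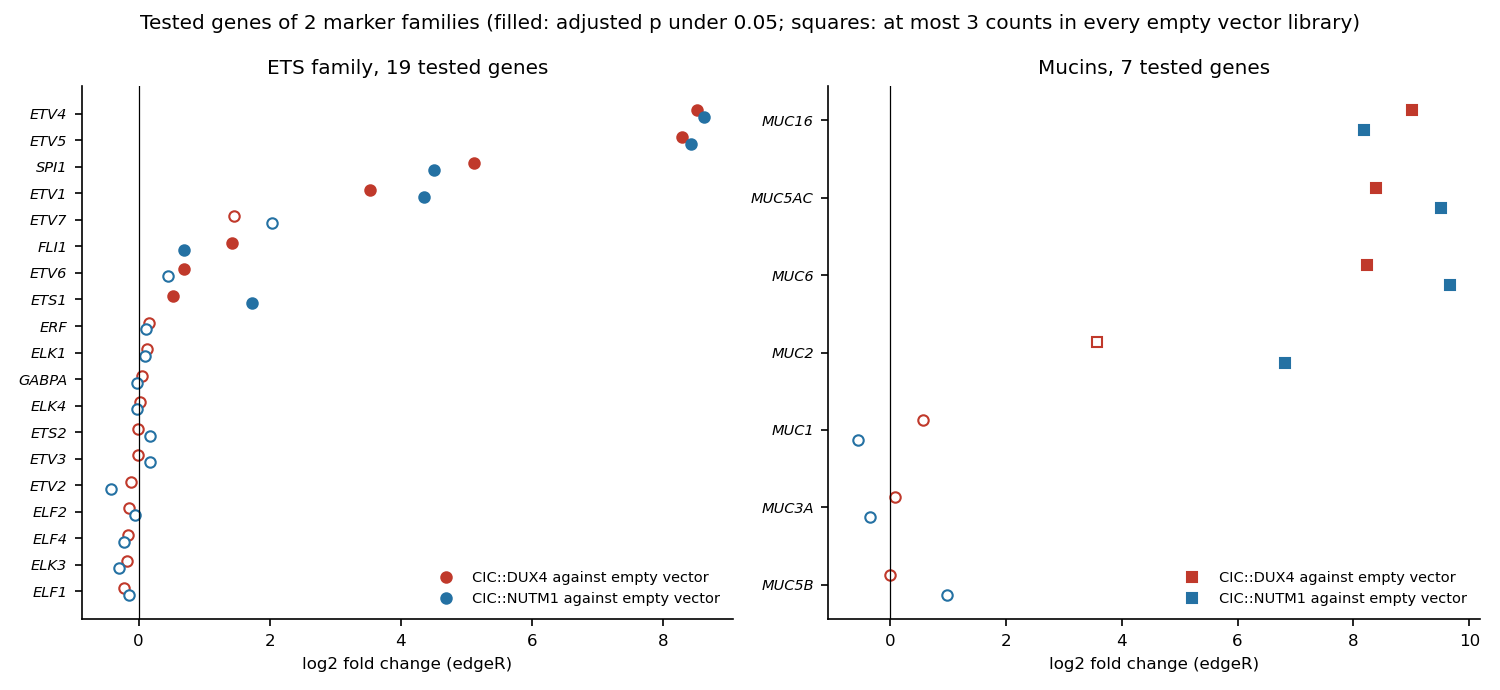
edgeR log2 fold change against empty vector (horizontal axis) of the tested ETS genes (left, 19 with FLI1) and mucins (right, 7), red for CIC::DUX4 and blue for CIC::NUTM1; filled symbols have an adjusted p under 0.05, and squares mark genes with at most 3 counts in every empty vector library, whose fitted fold depends on the prior count. FLI1 lies at 1.43 and 0.69, below ETV4 at 8.52 and 8.62, and the 4 mucins that rose start from a control level at or near 0 reads.

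CD99, a surface glycoprotein that is stained strongly in Ewing sarcoma, was abundant without a fusion (ENSG00000002586, chrX:2691133-2741309, plus strand, in the pseudoautosomal region). Its reads were 3131, 5834 and 4584 with empty vector, 5501, 4093 and 3565 with CIC::DUX4, and 5016, 6329 and 5747 with CIC::NUTM1. Scaled, they were 179, 171 and 184 CPM, then 209.8, 196 and 209.7, then 301, 242 and 298. The 3 groups did not overlap, with CIC::NUTM1 highest and empty vector lowest. With CIC::NUTM1 the mean CD99 level rose from 178 ± 6.53 to 280.3 ± 33.0 CPM (SD, n = 3), which is 1.58-fold, or 0.66 ± 0.07 on the log2 scale (edgeR adjusted p = 1.69e-07). With CIC::DUX4 the mean was 205 ± 7.88 CPM and the log2 fold change 0.21 ± 0.07 (95% interval 0.06 to 0.35), which did not pass (edgeR adjusted p = 0.0807). The call is close to the threshold: with only the groups compared in the fit the adjusted p was 0.0267, and with the replicate number as a block it was 0.0417. CIC::NUTM1 also exceeded CIC::DUX4, by 0.45 ± 0.07 on the log2 scale (edgeR adjusted p = 0.000135). The same sequence lies on X and Y there, and how the counting treated such reads is not given in the sources used here. Its relative CD99L2 did not pass the test in any of the 3 comparisons (log2 -0.22, -0.11 and 0.11), and a further relative, XG, was too low to test.

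NKX2-2, a homeobox factor of neural and endocrine cells and the nuclear stain that favours Ewing sarcoma, was present at a low level in all libraries (ENSG00000125820, chr20:21511010-21514026, minus strand). It had 82, 183 and 81 reads with empty vector, 70, 146 and 66 with CIC::DUX4, and 73, 134 and 57 with CIC::NUTM1. The groups overlapped throughout, and 1 CIC::DUX4 library, replicate 2, held both the highest level and a large part of the spread. Means were 4.43 ± 1.08, 4.52 ± 2.23 and 4.15 ± 1.10 CPM (SD, n = 3). The log2 fold change was 0.02 ± 0.30 for CIC::DUX4 and -0.09 ± 0.30 for CIC::NUTM1 (edgeR adjusted p = 0.986 and 0.894), and -0.11 between the fusions (edgeR adjusted p = 0.908). Its sign changed with the settings, and the 95% intervals were wide, -0.61 to 0.65 with CIC::DUX4 and -0.72 to 0.54 with CIC::NUTM1. Of 6 other NK2 genes, 5 were tested, and none rose with either fusion against empty vector. NKX2-3 fell with CIC::DUX4 (edgeR adjusted p = 0.0332), a call lost in 5 of 6 fits that each left out 1 library (adjusted p 0.0849 to 0.161). Between the fusions, NKX2-5 was higher with CIC::NUTM1 (log2 0.32, edgeR adjusted p = 0.00596), where 4.97% of tested genes were higher.

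Of 13 further genes tied to Ewing sarcoma, 10 were tested, and 1 rose with CIC::DUX4, 2 with CIC::NUTM1 and none fell. These counts are near the shares over all tested genes, 6.96% higher with CIC::DUX4 and 11.5% with CIC::NUTM1. The list's median log2 fold change was -0.10 and -0.17. SOX2, a stem cell factor, rose from 32.7 ± 3.58 to 105 ± 24.1 CPM with CIC::NUTM1 (log2 1.69 ± 0.17, edgeR adjusted p = 2.63e-05) and was 42.4 ± 6.75 CPM with CIC::DUX4 (log2 0.38 ± 0.17, edgeR adjusted p = 0.247). The fusions differed in SOX2 by 1.30 ± 0.17 on the log2 scale (edgeR adjusted p = 0.000558). EZH2, the H3K27 methyltransferase, rose with each by 0.35 and 0.39 on the log2 scale (edgeR adjusted p = 0.00341 and 0.000624), and its CIC::DUX4 call was lost without CIC::DUX4 replicate 1 (adjusted p = 0.0643). NR0B1, a well-known EWSR1::FLI1 target, stood at 2.83 ± 0.755 CPM with empty vector, 1.99 ± 0.940 with CIC::DUX4 and 2.38 ± 0.522 with CIC::NUTM1; it did not pass the test.

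WT1, a zinc finger factor of kidney and mesothelium and the stain that, with ETV4, favours CIC sarcoma, was already transcribed in these kidney cells (ENSG00000184937, chr11:32387775-32435630, minus strand). Its reads were 268, 514 and 267 with empty vector, 408, 283 and 285 with CIC::DUX4, and 311, 433 and 288 with CIC::NUTM1. The levels were 15.3, 15.05 and 10.7 CPM, then 15.6, 13.6 and 16.8, then 18.7, 16.6 and 14.9. The groups overlapped, and the lowest level was empty vector replicate 3. Means of 13.7 ± 2.60, 15.3 ± 1.62 and 16.7 ± 1.87 CPM (SD, n = 3) gave log2 fold changes of 0.16 ± 0.15 (95% interval -0.15 to 0.46) and 0.29 ± 0.15 (-0.02 to 0.59), with edgeR adjusted p = 0.628 and 0.216. The interval with CIC::DUX4 excludes a doubling of WT1 RNA, as does that with CIC::NUTM1, although neither shows that the level was unchanged. WT1-AS, the antisense gene that shares 113 exon bases with WT1, was at 1.00, 1.04 and 0.947 CPM in the 3 groups and was not called.

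WT1 is shown with a promoter sequence because its RefSeq start region (GRCh38.p14) holds a match to the octamer that the HMG box of capicua is known to bind, as ETV1 does. The octamer was searched as TGAATGAA, TGAATGGA, TCAATGAA or TCAATGGA on both strands, in windows of 250 bases before to 50 bases after each start; it is in capitals below. The first line is chr11:32435573-32435672, minus strand, with the match starting 87 bases before the start, and the second is chr7:13991497-13991596, minus strand, with the match starting 125 bases before the start.
WT1: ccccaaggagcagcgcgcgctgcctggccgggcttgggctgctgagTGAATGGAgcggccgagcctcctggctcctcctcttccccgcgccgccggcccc
ETV1: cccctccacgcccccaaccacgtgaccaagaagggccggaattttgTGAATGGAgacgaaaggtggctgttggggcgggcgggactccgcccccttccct
The match lies in 1 of 4 WT1 windows and 1 of 6 ETV1 windows. Both have the same 8 letters on the same strand, while ETV1 rose by 3.53 ± 0.26 with CIC::DUX4 and 4.35 ± 0.26 with CIC::NUTM1 on the log2 scale (edgeR adjusted p = 7.47e-06 and 7.28e-07). The WT1 log2 fold changes of 0.16 and 0.29 did not pass the test. Windows were found for 7 of the 10 markers, 15 windows in all. FLI1, DES and MYOD1 had no window and were not searched, and neither were ETV4 and ETV5. Windows of WT1 and BCOR held a match, 2 of 15 windows, beside 3.77% of all 35116 windows. A match is a description of letters and not a shown binding site.

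Other genes of the CIC sarcoma panel passed the test where WT1 did not. Of 7 such genes, 6 were tested, and ETV1, ETV4, ETV5 and MUC5AC rose with each fusion, none fell, and the median log2 fold change was 5.91 for CIC::DUX4 and 6.39 for CIC::NUTM1. This list was chosen with earlier results of these data known, so its count and median are a description only. PDPN and CCND2, tested as well, did not pass, and CALB2 (calretinin) had at most 4 reads in any library. Of 6 genes near WT1 in sequence or function, 5 were tested: none passed with CIC::DUX4, and WTAP and EGR1 rose with CIC::NUTM1. Of all tested genes, 6.96% rose with CIC::DUX4 and 11.5% with CIC::NUTM1. EGR1, an immediate early zinc finger factor, rose from 3.00 to 5.76 CPM (log2 0.95, edgeR adjusted p = 0.00977), a call lost without empty vector replicate 2 (adjusted p = 0.0618). WTAP rose by 0.26 (edgeR adjusted p = 0.0166), a call lost without empty vector replicate 3 (adjusted p = 0.111) or CIC::NUTM1 replicate 3 (adjusted p = 0.148).

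MUC4, a membrane mucin, was at the limit of detection in each group (ENSG00000145113, chr3:195746765-195812277, minus strand). It had 8, 0 and 4 reads with empty vector, 5, 6 and 2 with CIC::DUX4, and 5, 6 and 2 with CIC::NUTM1. The groups overlapped, at 0.206 ± 0.232, 0.199 ± 0.0852 and 0.211 ± 0.0995 CPM (SD, n = 3). Pooled reads, scaled by library size, were 1.29 times those of empty vector with CIC::DUX4 (95% exact interval 0.545 to 3.10) and 1.34 times with CIC::NUTM1 (0.562 to 3.20). The exact permutation p for these contrasts was 1.

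Other mucins did rise from a control level at or near 0. Of 14 mucin genes besides MUC4, 7 were tested. Among these, 3 rose with CIC::DUX4 and 4 with CIC::NUTM1, beside 6.96% and 11.5% of all tested genes, and none fell. MUC5AC, a gel-forming mucin of stomach and airway, had 2 reads in all with empty vector, 698 with CIC::DUX4 and 1388 with CIC::NUTM1, ratios of 417 (95% exact interval 115 to 3450) and 856 (237 to 7074). MUC6 had 0 reads with empty vector and was at least 13.2-fold higher with CIC::DUX4 and at least 35.8-fold higher with CIC::NUTM1, against a floor of 3 counts per library. MUC16, the CA-125 antigen, likewise had 0 control reads and was at least 22.7-fold and 12.7-fold higher. MUC2 rose with CIC::NUTM1 (124 reads against 1, ratio 153, interval 26.9 to 6088) and had 13 reads with CIC::DUX4 (edgeR adjusted p = 0.0553). The membrane mucin MUC1 overlapped between all groups, at 0.853 ± 0.400, 1.30 ± 0.395 and 0.602 ± 0.330 CPM. Mucins share repeated sequence, and how reads that match several of them were counted is not given in the sources used here.

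BCOR, a corepressor of a variant polycomb complex and the marker of BCOR-rearranged sarcoma, was the most abundant of the 10 genes (ENSG00000183337, chrX:40049815-40177329, minus strand). Its reads were 6719, 13995 and 9883 with empty vector, 7636, 6870 and 5555 with CIC::DUX4, and 5152, 9627 and 6620 with CIC::NUTM1. Scaled, the levels were 384, 409.8 and 396 CPM, then 291, 329 and 327, then 309, 368 and 343. Every library of a fusion lay below the control libraries, and the fusions overlapped. With CIC::DUX4 the BCOR mean fell from 397 ± 12.7 to 316 ± 21.2 CPM (SD, n = 3), and the log2 fold change was -0.33 ± 0.06 (edgeR adjusted p = 0.000949). With CIC::NUTM1 it was 340.1 ± 29.7 CPM, and BCOR fell by 0.22 ± 0.06 on the log2 scale (edgeR adjusted p = 0.0192). That call was lost without empty vector replicate 2 (-0.20, adjusted p = 0.0859), without empty vector replicate 3 (-0.22, adjusted p = 0.0647) and without CIC::NUTM1 replicate 1 (-0.16, adjusted p = 0.110). The fusions did not differ by the test (0.11 ± 0.06, edgeR adjusted p = 0.404).

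BCOR holds the second promoter match, shown in 30 bases because it lies just after a RefSeq start: chrX:40146611-40146640, minus strand, with the octamer (capitals) on the opposite strand.
BCOR: atcttccgcaaTCCATTCAtgcactgaagc
It is in 1 of 2 BCOR windows. When only the 250 bases before the start are read, WT1 alone of the 7 markers with a window keeps a match, beside 3.18% of all windows.

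Of 10 genes whose proteins work with BCOR, all were tested. RYBP rose with CIC::DUX4, and USP7, RYBP and BCL6 with CIC::NUTM1, and none fell. Of all tested genes, 6.96% rose with CIC::DUX4 and 11.5% with CIC::NUTM1. RYBP, a subunit of variant polycomb complexes, rose from 47.4 to 66.3 and 68.3 CPM (log2 0.48 and 0.52, edgeR adjusted p = 0.00104 and 0.000245). The USP7 call was lost without empty vector replicate 3 (adjusted p = 0.0516), and that of BCL6 without empty vector replicate 1 (0.0650), empty vector replicate 2 (0.0550) or CIC::NUTM1 replicate 1 (0.0517). Among other genes stained or raised in BCOR-rearranged sarcoma, CCND1 and NTRK3 rose with each fusion. Cyclin D1 (CCND1) rose from 87.0 ± 9.36 to 241 ± 26.4 and 383 ± 70.7 CPM (log2 1.47 and 2.14, edgeR adjusted p = 0.000197 and 9.01e-06). NTRK3 went from 5 pooled reads to 28 and 41, and its CIC::DUX4 call (edgeR adjusted p = 0.0471) was lost in all 6 fits that left out 1 library (adjusted p 0.0561 to 0.207).

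KIT, the receptor tyrosine kinase for stem cell factor, had lower mean levels with both fusions (ENSG00000157404, chr4:54657918-54740715, plus strand). Its reads were 302, 670 and 423 with empty vector, 382, 334 and 231 with CIC::DUX4, and 222, 374 and 270 with CIC::NUTM1. The CPM values were 17.3, 19.6 and 16.95, then 14.6, 16.0 and 13.6, then 13.3, 14.3 and 13.99. Each fusion group lay below empty vector without overlap, by a small margin for CIC::DUX4. With CIC::NUTM1 the KIT mean fell from 17.9 ± 1.45 to 13.9 ± 0.505 CPM (SD, n = 3), or by 0.37 ± 0.13 on the log2 scale (edgeR adjusted p = 0.0468). This call did not survive leaving out any 1 of the 6 libraries (log2 -0.41 to -0.30, adjusted p 0.0579 to 0.205). With CIC::DUX4 the level was 14.7 ± 1.22 CPM and the log2 fold change -0.29 ± 0.13 (95% interval -0.55 to -0.03, edgeR adjusted p = 0.200), and between the fusions it was -0.09 (edgeR adjusted p = 0.805). Of the 4 tested genes among its 4 related receptors and its ligand, KITLG alone passed the test. KITLG, the stem cell factor that binds KIT, had 20.6, 22.9 and 21.7 CPM with empty vector, 89.8, 68.7 and 65.2 with CIC::DUX4, and 116, 89.8 and 126 with CIC::NUTM1. Its log2 fold change was 1.78 ± 0.14 for CIC::DUX4 and 2.34 ± 0.14 for CIC::NUTM1 (edgeR adjusted p = 2.80e-07 and 7.08e-09). The ligand thus rose with each fusion, in which KIT itself did not rise.

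**Figure D5:**
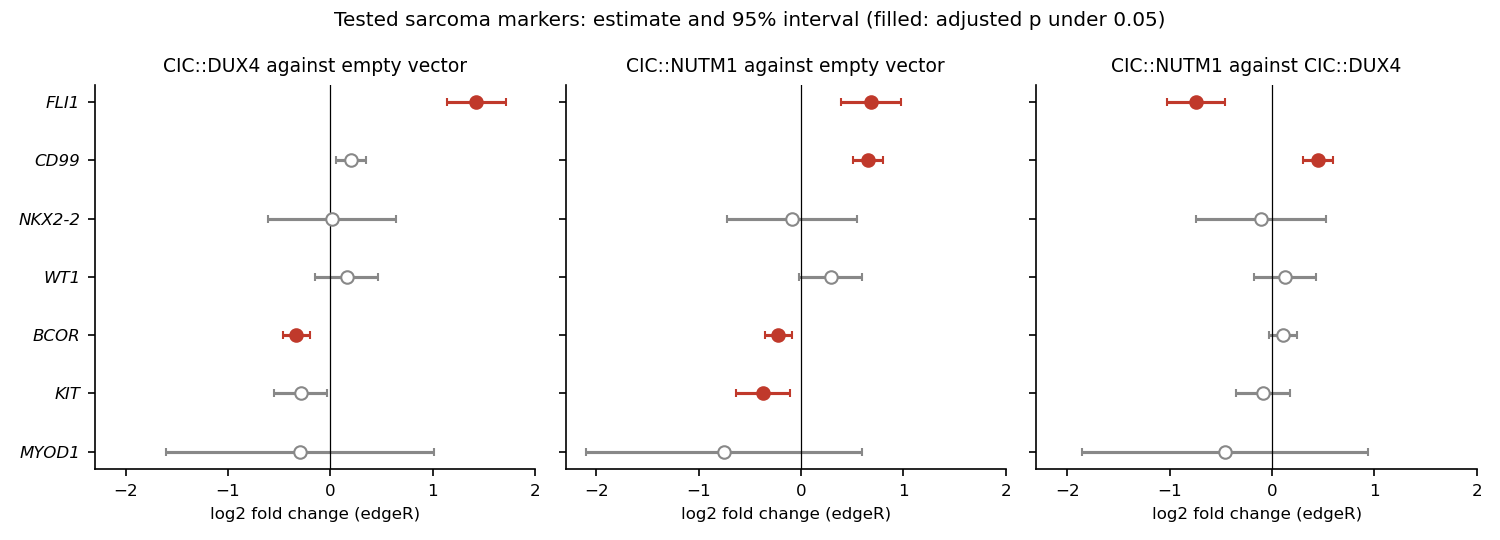
edgeR log2 fold change (horizontal axis) with its 95% interval for the 7 tested markers in the 3 comparisons, with filled points where the adjusted p was under 0.05. FLI1 is at 1.43 with CIC::DUX4 and 0.69 with CIC::NUTM1, CD99 at 0.66 with CIC::NUTM1, and the intervals of WT1, NKX2-2 and MYOD1 span 0 in all 3 panels.

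Over these 7 genes, the libraries did not overlap for 4 in each comparison with empty vector: FLI1 and CD99 lay higher, and BCOR and KIT lower. Among all tested genes 14.8% lay higher and 11% lower in this way with CIC::DUX4, and 18.2% and 12.9% with CIC::NUTM1. Between the fusions the libraries did not overlap for CD99, higher with CIC::NUTM1, and FLI1, lower, beside 12.6% and 9.36% of all tested genes.

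DES encodes desmin, the intermediate filament of muscle, and MYOD1 the factor that commits cells to skeletal muscle. DES (ENSG00000175084, chr2:219418377-219426739, plus strand) had 0, 20 and 8 reads with empty vector, 12, 7 and 6 with CIC::DUX4, and 6, 15 and 4 with CIC::NUTM1. The groups overlapped, at 0.302 ± 0.293, 0.382 ± 0.0662 and 0.380 ± 0.184 CPM (SD, n = 3), and the empty vector libraries spanned the widest range. Pooled reads, scaled by library size, were 1.07 times those of empty vector with CIC::DUX4 (95% exact interval 0.597 to 1.90) and 1.10 times with CIC::NUTM1 (0.616 to 1.96), with exact permutation p of 0.7 and 0.8. MYOD1 (ENSG00000129152, chr11:17719568-17722131, plus strand) had 3, 33 and 16 reads with empty vector, 12, 10 and 10 with CIC::DUX4, and 3, 16 and 5 with CIC::NUTM1. It passed the filter on low counts but not the test: the log2 fold change was -0.29 ± 0.63 for CIC::DUX4 and -0.75 ± 0.65 for CIC::NUTM1 (edgeR adjusted p = 0.866 and 0.513). The 95% intervals for MYOD1 were correspondingly wide, -1.60 to 1.01 and -2.10 to 0.60 on the log2 scale. VIM, the mesenchymal filament related to desmin, was abundant and rose from 573 ± 22.6 to 710.1 ± 37.1 CPM with CIC::NUTM1 (log2 0.31 ± 0.05, edgeR adjusted p = 0.000111); with CIC::DUX4 it was 634 ± 7.56 CPM and did not pass (edgeR adjusted p = 0.0979).

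Of 19 further genes of skeletal muscle or rhabdomyosarcoma, 6 were tested, and 11 of the untested had at most 9 counts in every library. OLIG2 rose with each fusion, PAX3 with CIC::NUTM1, and none fell. Of all tested genes, 6.96% rose with CIC::DUX4 and 11.5% with CIC::NUTM1. OLIG2, a factor of the oligodendrocyte lineage that is stained in fusion-positive rhabdomyosarcoma, rose from 12.3 ± 1.41 to 26.1 ± 3.23 CPM with CIC::DUX4 and 28.3 ± 4.57 with CIC::NUTM1 (log2 1.08 ± 0.13 and 1.18 ± 0.13, edgeR adjusted p = 2.04e-06 and 2.61e-07). PAX3, a factor of muscle and neural crest precursors, rose from 17.2 ± 2.47 to 24.9 ± 1.96 CPM with CIC::NUTM1 (log2 0.54 ± 0.12, edgeR adjusted p = 0.00299). These 2 genes are transcription factors of other lineages as well. Of the contractile genes of the list, ACTA1 and MYH3 were tested and did not pass, and ACTC1, MYH8, TNNT2 and TNNI1 were too low to test. ACTC1 had 0, 1 and 0 reads with empty vector, 19, 1 and 9 with CIC::DUX4, and 6, 0 and 1 with CIC::NUTM1. MYH8 had no reads with empty vector, 10, 0 and 4 with CIC::DUX4, and 4, 10 and 8 with CIC::NUTM1.

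Across the 9 libraries, the genes whose log2 CPM followed the called markers most closely were, for FLI1, PRIM2 (Pearson r = 0.985) and SH3RF2 (0.974), with the unnamed gene ENSG00000288766 between them (0.975). For CD99 they were BMP7 (0.991), ABHD17C (0.986) and ZNRF2 (0.986). For BCOR they were PGK1 (0.978), SLITRK3 (0.974) and UGDH (0.972), and for KIT they were BBS2 (0.960), SOAT1 (0.958) and ENTPD1-AS1 (0.957). These values describe 9 libraries in 3 groups, so genes that differ between groups in the same order score high, and no p is given.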

How the data were processed

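The deposited files are a table of raw counts, 1 value per Ensembl gene and library, and a table of the authors' log2 CPM for 15811 genes. The submitters' processing notes name STAR 2.7.10b, R 4.2.2, edgeR 3.40.2 and GRCh38. The annotation, the counting program and the use of strand are not given in the sources used here. The log2 table held 7 of the 10 markers and correlated at 1 with log2 CPM computed here (TMM, prior count 2).

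The count model was edgeR 4.0.16 (R 4.3.3): filterByExpr, TMM scaling, and a robust quasi-likelihood fit with 1 mean per group over all 9 libraries. p-values were adjusted by Benjamini-Hochberg over 17576 genes and called under 0.05. The biological coefficient of variation was 10.1%. Markers below the filter were compared by exact permutation tests and exact conditional ratio intervals at 95%. No molecular identifiers were used, so these intervals and the floor of 3 counts describe counting error and not independent molecules. Replicates were transfected on separate days, per the labels. Levels are TMM-scaled CPM, per kb of GENCODE 29 exon union where genes are compared. Gene positions are from GENCODE 29 and promoter windows from RefSeq, GRCh38.p14. Symbols matched 62622 of 62700 IDs.

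The markers and all lists were chosen with earlier results of these data known. All 10 markers are named, with ETV4 as a reference of the response, the called list genes of largest change (up to 4 a list), and the 3 genes most alike each called marker. Genes named beyond this are list members given by value or where a count is small. Alternatives were 3 other scalings, 2 other filters, DESeq2 1.42.0, limma-trend (limma 3.58.1) on the authors' log2 CPM, fits of only 2 groups, the replicate number as a block, a minimum log2 fold change of 1, and each library left out in turn. The result of 1 gene called in a context list is left out. The scripts were tested on simulated data.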

Additional observations from a re-analysis of the deposited data

How the results depend on the processing

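Over all tested genes, the replicate numbers showed little pairing. Libraries of equal number from different groups had correlated deviations of -0.031 to 0.075, and unequal numbers -0.108 to 0.070. Values over all genes cannot show that a single gene did not vary with the replicate. With the replicate block, 2 markers in place of 1 were called higher with CIC::DUX4, CD99 being added, and no other marker call changed; the NKX2-2 value there was -0.017. With only the groups compared in the fit, 2 markers were likewise higher with CIC::DUX4, and 1 in place of 2 was lower with CIC::NUTM1, as without a filter. Leaving out 1 library left 0 to 1 lower with CIC::NUTM1. With a minimum log2 fold change of 1, FLI1 with CIC::DUX4 was the single marker called, and the other counts were 0. Reading only the 250 bases before the start left 1 marker with a promoter match. No marker call changed with the 3 other scalings, DESeq2 or limma-trend, although library totals moved the calls of all genes with CIC::NUTM1 from 2018 higher and 673 lower (75% higher) to 1783 and 1138 (61%), upper quartile factors to 1807 and 1124 (61.7%), and the calls between fusions from 75.2% higher to 61.4% with library totals.

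Signs changed in uncalled values of NKX2-2 and MYOD1; the cause was not tested. NKX2-2 with CIC::DUX4 became -0.0029 without a filter, -0.054 by limma-trend, -0.17 without empty vector replicate 3 and -0.46 without CIC::DUX4 replicate 2 (range without 1 library -0.46 to 0.30). With CIC::NUTM1 it became 0.084 without empty vector replicate 2 and 0.085 without CIC::NUTM1 replicate 3 (range -0.28 to 0.085), and between fusions 0.073 without CIC::NUTM1 replicate 3 and 0.37 without CIC::DUX4 replicate 2 (range -0.39 to 0.37). MYOD1 with CIC::DUX4 became 0.022 by limma-trend and 0.25 without empty vector replicate 2 (range -0.68 to 0.25). MYOD1 had no value with at least 10 counts required in every library, and ERG, MUC4 and DES had a fitted value only without a filter, where depth limits them. Over all genes, counts lower with CIC::DUX4 moved from 224 to 380 without a filter and 439 with only 2 groups.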

Other observations

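The 2 background lists, used above to check the cells, held changes of their own. PAX8, a kidney lineage factor, had 0 reads in each empty vector library, 45, 22 and 13 with CIC::DUX4, and 5, 1 and 2 with CIC::NUTM1. Against a floor of 3 counts per library the mean of PAX8 with CIC::DUX4 was at least 9.31-fold higher (edgeR adjusted p = 9.20e-05). PAX8 did not pass with CIC::NUTM1 (edgeR adjusted p = 0.0509). EYA1, a kidney progenitor coactivator, rose from 5.69 ± 0.310 to 18.8 ± 1.82 CPM with CIC::DUX4 and 13.2 ± 3.16 with CIC::NUTM1 (SD, n = 3), log2 fold changes of 1.73 ± 0.17 and 1.21 ± 0.17 (edgeR adjusted p = 4.79e-08 and 7.96e-06). The neurofilament gene NEFL, high in 293 cells, fell from 197 ± 11.6 to 143 ± 7.40 and 166 ± 8.52 CPM (log2 -0.47 and -0.25, edgeR adjusted p = 1.51e-05 and 0.0104).

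TTN, the giant sarcomere protein gene, had 7, 18 and 8 reads with empty vector, 80, 47 and 37 with CIC::DUX4, and 36, 59 and 64 with CIC::NUTM1. Its log2 fold change was 2.55 ± 0.38 and 2.59 ± 0.38 (edgeR adjusted p = 3.68e-05 and 1.75e-05), while MYOD1 did not pass and DES was too low to test.

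Of 22 markers of other tumours, 16 were tested. CHGA, KRT8 and PTPRC rose with CIC::DUX4, and TP63, MDM2 and PTPRC rose and SYP fell with CIC::NUTM1. Of all tested genes, 6.96% rose with CIC::DUX4, and 11.5% rose and 3.83% fell with CIC::NUTM1. The 3 calls with CIC::DUX4 each depended on single libraries. CHGA was lost without CIC::DUX4 replicate 1 (adjusted p = 0.0755), empty vector replicate 2 (0.0523) or empty vector replicate 3 (0.0748), and KRT8 without empty vector replicate 1 (0.0521) or 2 (0.0692). PTPRC was lost without CIC::DUX4 replicate 1 (0.414), empty vector replicate 1 (0.0777) or empty vector replicate 3 (0.118). TP63 with CIC::NUTM1 was lost without CIC::NUTM1 replicate 3 (0.244), empty vector replicate 1 (0.0852) or empty vector replicate 3 (0.110).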
